A study of Mus musculus with 72 samples.

Results

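The blood response of mice to 4 Gy of x-rays was compared between day 7 and day 1 after exposure. For each gene, the effect of irradiation on a day is the mean log2 level in the irradiated mice minus that in the unirradiated controls of the same day, and the change is the day 7 effect less the day 1 effect. The change rests on 22 of the 72 arrays of the series, taken by their labelled group, with 5 control and 5 irradiated mice at day 1 and 6 control and 6 irradiated mice at day 7. It asks which transcripts moved back to the control level, passed it or moved away from it within the first week.

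All were young adult male C57BL/6 mice, an inbred strain. The irradiated mice were exposed to 4 Gy from an orthovoltage x-ray machine, and the controls were sham-irradiated and drawn on the same days. Blood was taken by cardiac puncture when a mouse was sacrificed and mixed with an RNA-stabilising solution, so the days compare different mice. Globin transcripts were reduced in the RNA, which was labelled with Cy3 and hybridised to one-colour whole-genome oligonucleotide arrays, with 1 mouse per array. The methods state that 1 blood sample of each day 1 group was lost to clotting.

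Blood contains reticulocytes, the youngest red cells, which have no nucleus but still carry messenger RNA for red cell proteins, and their supply depends on dividing precursors in the bone marrow and spleen. Ionising radiation breaks DNA, which activates the transcription factor p53 and halts or kills dividing precursors. Resting lymphocytes, above all B cells, are known as some of the most radiosensitive cells of the body, whereas mature neutrophils and platelets are not killed directly and decline as their precursors fail.

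Levels are log2 intensities with the median of each array set to 0, so a level or change is relative to the other transcripts of the same array, and 1 log2 unit is a 2-fold difference. Blood cell transcripts were well detected, since 35 to 38 of 38 T cell genes, 27 to 34 of 34 B cell genes and 35 to 36 of 36 platelet genes were above background on each array. Transcripts of hepatocytes, which blood cells are not known to make, also differed between the groups. The mean log2 level of 54 such genes was 5.81 to 7.16 in the irradiated mice of day 1, -2.13 to 5.05 in the controls of day 1 and -5.17 to -3.41 in the controls of day 7. In the irradiated mice of day 7 it was 2.93, 3.75 and 5.63 in replicates 2, 4 and 6, and -5.69 to -4.61 in the other 3. The arrays were scanned on 4 dates that follow the groups. All day 1 controls were scanned on the first, 1 irradiated array of day 1 on the second, the other 4 with all day 7 controls on the third, and all irradiated arrays of day 7 on the fourth.

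Of 10863 genes tested, 2429 (22.4%) changed between the days at a p-value below 0.001 and a false discovery rate below 0.05 in limma. For 1349 genes (12.4%) the effect was higher at day 7, here called a rise, and for 1080 (9.94%) it was lower, here called a fall. The median change was 1.72 over the genes that rose and -1.91 over those that fell, beside -0.06 over all genes tested. The change is also the difference between irradiated mice of the 2 days less the difference between the controls of the 2 days. The first part was called in the direction of the change for 2064 of the 2429 genes. Over all 10863 genes it was called for 4751, in either direction. The second part did not pass the test for 2149 of the 2429, near the share over all genes, where 1239 of 10863 passed. In 293 genes the difference between the controls was the larger of the 2 parts. In whole blood, fewer cells of a type and less RNA per cell cannot be told apart.

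Among the rises, 841 genes were lower than control at day 1 and did not pass the test at day 7, 150 went from lower to higher than control, and 106 were lower on both days. A further 166 rises were called higher at day 7 without a call at day 1. Among the falls, 677 genes were higher than control at day 1 and did not pass the test at day 7, 45 were higher and then lower, 12 were higher on both days and 180 were called lower at day 7 alone. Single mice moved the count of 45, to 24 when control replicate 3 of day 1 was left out, to 25, 95 and 27 for control replicates 1, 2 and 4 of day 7, and to 26 for either of irradiated replicates 2 and 4 of day 7. The split between rises and falls depended on the centring, with 2198 rises and 662 falls when each array was centred on its 75th percentile, where the median change of all genes was 0.33. With the scan date as a block in a fit of all 10 groups of days 1 and 7, 17 genes were called (8 rises and 9 falls) and the median SE grew from 0.38 to 0.95. With only mice of a high hepatocyte level among the irradiated and the day 1 controls, 955 genes were called (586 rises and 369 falls). All day 7 controls, at -5.17 to -3.41, were kept in this fit, so its day 7 effect set high against low hepatocyte levels. Counts and changes given below for mice of a high hepatocyte level are from this fit. With normexp background correction of the mean spot signals in place of the scanner's subtraction, 335 genes were called (162 rises and 173 falls). This correction added an offset of 50 to each signal, where the scanner's median signal per array was 32.2 to 96.4 in these groups. Such an offset makes the log2 differences of dim spots smaller, and its part in the lost calls was not tested. The part of the scan date and of these hepatocyte transcripts in each result below was not tested beyond the values given.

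**Figure D1:**
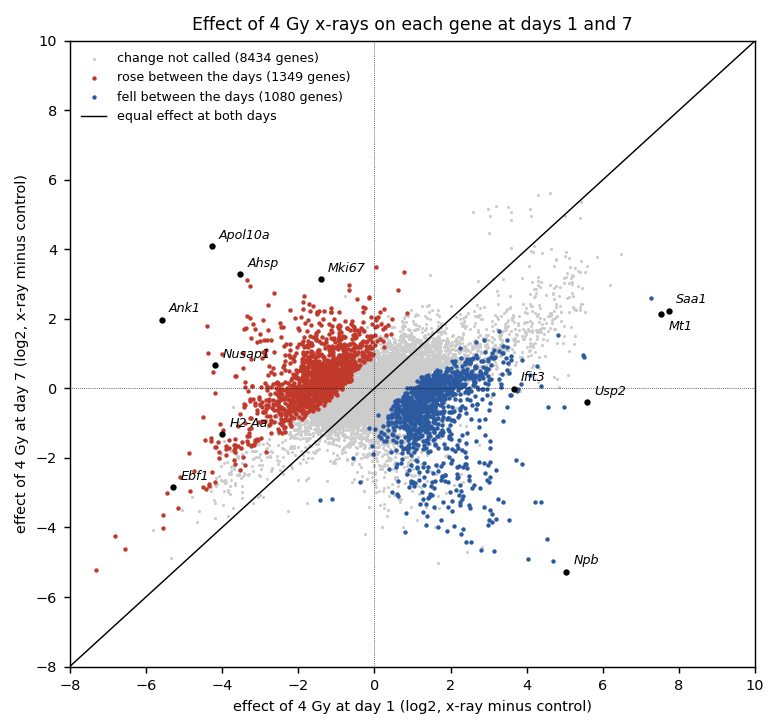
Effect of 4 Gy of x-rays on each of 10863 genes at day 1 (horizontal axis) and day 7 (vertical axis), both as log2 of irradiated over control. Points above the diagonal line had a higher effect at day 7, and the 1349 coloured genes there rose, among them Ank1 and Ahsp, which were below control at day 1 and above it at day 7. The 1080 coloured genes under the line fell, among them Ifit3, Mt1 and Usp2.

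**Figure D2:**
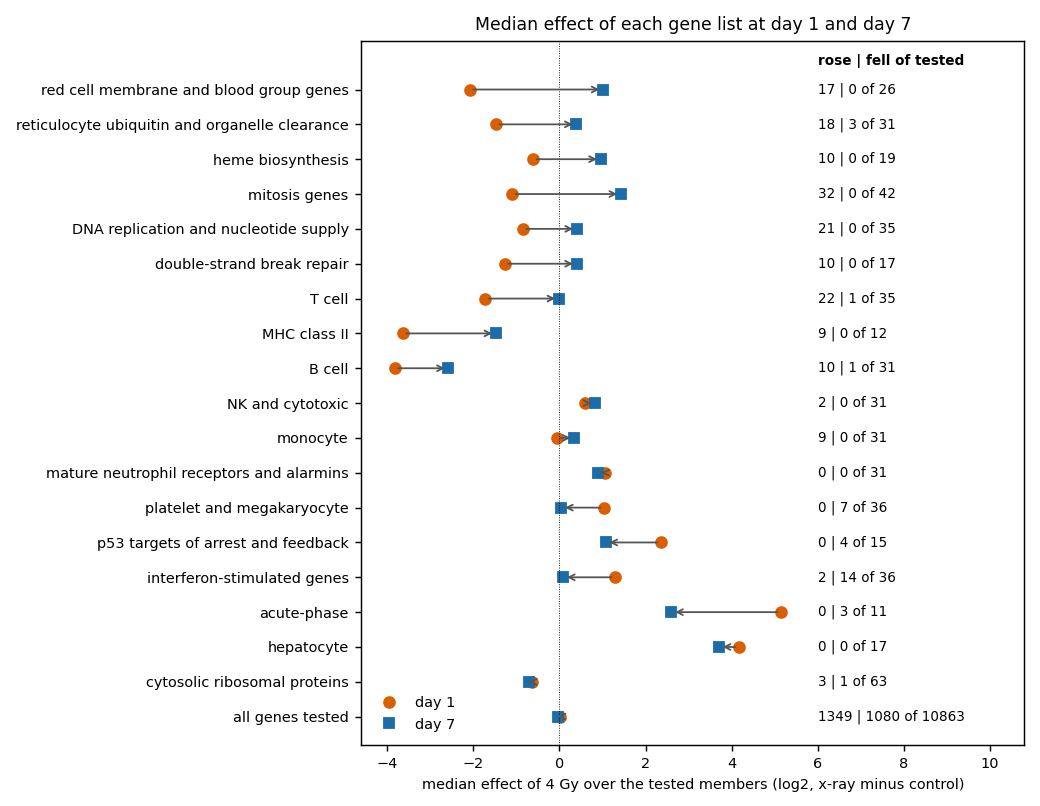
Median effect of 4 Gy over the tested members of each gene list at day 1 (circles) and day 7 (squares), on the log2 scale, with arrows from day 1 to day 7 and the numbers of members that rose and fell at the right. Red cell and mitosis genes cross from below to above control, B cell and MHC class II genes stay below control, and interferon-stimulated, p53 target and acute-phase genes move down from a day 1 effect above control.

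Red cell transcripts were among the largest rises. Of 26 tested genes for red cell membrane proteins and blood group antigens, 17 rose and 0 fell, with a median change of 3.22. Their median effect went from -2.09 at day 1 to 1.02 at day 7, while the controls differed between the days by a median of 0.18, and 7 of the 26 were called with opposite signs on the 2 days. Ank1, which encodes the ankyrin that fixes the membrane skeleton to the membrane proteins, had log2 levels of -0.21, -0.21, -0.32, 1.28 and 0.97 in the day 1 controls and of -4.43, -6.11, -7.22, -3.23 and -5.42 in the irradiated mice of day 1, 2 of which were above background. At day 7 its levels ran from -0.31 to 0.92 in the controls (median 0.52) and from 2.00 to 2.87 in the irradiated mice (median 2.33). All irradiated mice thus lay below all controls at day 1 and above all controls at day 7, and the change was 7.56 ± 0.69 (SE, limma adjusted p = 1.45e-07).

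The anion exchanger of the red cell membrane, Slc4a1, showed the same crossing in an abundant transcript. Its log2 levels were 5.37, 6.24, 5.67, 7.08 and 6.71 in the day 1 controls, and 2.87, 1.5, 0.37, 2.96 and 1.38 in the irradiated mice of that day. At day 7 they were 5.67 to 6.72 in controls (median 6.55) and 7.45 to 8.72 in irradiated mice (median 8.10), with no overlap on either day and a change of 6.18 ± 0.58 (limma adjusted p = 1.63e-07). Ahsp, the chaperone of free alpha-globin, had levels of 4.83, 4.56, 4.26, 6.16 and 5.80 in day 1 controls and of 2.48, 1.39, 0.29, 2.26 and 1.58 in irradiated mice. By day 7 the irradiated mice were at 7.98 to 9.18 (median 8.68) and the controls at 4.99 to 5.66 (median 5.33), again without overlap. Its change was 6.82 ± 0.51 (limma adjusted p = 1.43e-08), and its effect of 3.29 at day 7 was close in size to that of -3.52 at day 1.

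Other membrane genes moved in the same direction. The blood group genes Rhd and Kel changed by 5.21 ± 0.52 (-2.80 at day 1 to 2.41 at day 7) and 5.04 ± 0.50 (-3.19 to 1.85). Epb42, for the membrane skeleton protein 4.2, rose by 4.97 ± 0.54, and Tmod1, which caps the short actin filaments of the skeleton, by 4.83 ± 0.56. The smallest called rise of the list was 1.27, for Xk, which kept its call in 17 of 43 alternative settings. In the fit with the scan date as a block, the median change of the list was 1.76, 0 members were called, and Ank1 changed by 4.54 ± 1.63 (limma adjusted p = 0.317). Of the members, 16 rose among mice of a high hepatocyte level. With normexp correction 10 of 27 rose, the median was 1.07 and Ank1 changed by 3.22 ± 0.52, Epb42 by 2.23 ± 0.51 and Tmod1 by 2.22 ± 0.50.

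The promoters of red cell genes are known to bind GATA1, the main erythroid transcription factor, which reads GATA motifs. The letters AGATAA or TGATAA, on either strand, occurred in the 250 bases before the start in 16.6% of 32851 RefSeq promoters and in 7 of the 12 risen membrane genes with a promoter in that table (58.3%). The stretches below, from RefSeq promoters of assembly GRCm38.p6 and written 5′ to 3′ in the direction of the gene, show them for 4 blood group and membrane genes that rose, with the motif in capitals. A match describes the letters and not a bound site. Here and below, the share over all promoters counts each promoter, whereas a listed gene counts when any of its promoters holds the motif. This can raise the share of a list.
Kel, chr6:41704326-41704396 (minus strand): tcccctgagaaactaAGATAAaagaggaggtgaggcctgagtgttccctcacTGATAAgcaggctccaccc
Rhd, chr4:134864478-134864513 (plus strand): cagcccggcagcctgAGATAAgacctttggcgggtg
Rhag, chr17:40811103-40811138 (plus strand): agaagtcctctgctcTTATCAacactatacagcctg
Epb42, chr2:121037083-121037118 (minus strand): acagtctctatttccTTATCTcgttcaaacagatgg

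Heme genes and the clearance machinery of reticulocytes gave smaller changes. Of 19 tested genes for heme synthesis, 10 rose and 0 fell, with a median of 1.70. Slc25a37, the mitochondrial iron importer mitoferrin, rose by 3.98 ± 0.45 (-3.63 at day 1 to 0.36 at day 7), and Fech, which inserts the iron into heme, by 1.97 ± 0.34 (-2.16 to -0.19). Alas2, the first and rate-limiting enzyme of erythroid heme synthesis, was among those not called, with a change of 0.14 ± 0.32 (limma adjusted p = 0.731). Of 31 genes for ubiquitin-dependent remodelling and organelle removal, 18 rose and 3 fell, with a median of 2.06. Yod1, a deubiquitinating enzyme, rose by 4.46 ± 0.33, Ube2h, an E2 enzyme, by 3.85 ± 0.42, Wdr26, a ubiquitin ligase subunit, by 3.71 ± 0.37, and Ube2o, which removes ribosomes from maturing reticulocytes, by 3.42 ± 0.43. The autophagy genes Ulk1 (-3.79 ± 0.93), Gabarapl1 (-1.89) and Map1lc3b (-1.39) were the 3 that fell. With normexp correction 2 of 19 heme genes and 13 of 33 clearance genes rose. Across arrays Ulk1 followed the set of falls described below, with a correlation within groups of 0.97.

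Erythroid transcription factors did not move as one. Of 21 tested factors and differentiation genes 7 rose and 1 fell, with a median of 0.60. Trim10, a protein of terminal erythroid differentiation, rose by 5.12 ± 0.54, Sox6, a repressor of embryonic globin, by 3.32 ± 0.59 and Lmo2, the bridging subunit of the GATA1 and Tal1 complex, by 2.72 ± 0.32. Gfi1b, a repressor needed for red cells and platelets, fell by 1.57 ± 0.41, but kept its call in only 15 of 43 alternative settings. The changes of Gata1 (-0.46 ± 0.45) and of Klf1, the erythroid Kruppel-like factor (0.95 ± 0.34), did not pass the test. With normexp correction Sox6 (0.21 ± 0.69) was not called.

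Most genes of mitosis rose. Of 42 tested, 32 rose and 0 fell, with a median of 2.21. Their median effect was -1.10 at day 1 and 1.43 at day 7, 14 of them were called lower and then higher than control, and the controls themselves were higher at day 7 by a median of 0.77. Mki67, the proliferation antigen Ki-67, had log2 levels of 0.07, 0.15, 0.12, 0.76 and 0.41 in the day 1 controls and of -0.62, -1.46, -1.64, -0.83 and -0.98 in the irradiated mice. By day 7 it was at 0.56 to 2.32 in controls (median 1.03) and at 3.65 to 4.90 in irradiated mice (median 4.40). The irradiated mice lay under all controls at day 1 and over all controls at day 7, and the change was 4.55 ± 0.42 (limma adjusted p = 1.45e-07).

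Ccna2, for cyclin A2 of S phase and mitotic entry, was at 0.33, 0.80, 0.53, 1.53 and 1.27 in the day 1 controls and at -1.77, -2.60, -2.96, -1.07 and -2.14 in the irradiated mice. At day 7 its controls were at 0.87 to 2.19 (median 1.24) and its irradiated mice at 2.45 to 3.33 (median 2.98). The groups did not overlap on either day, with a change of 4.57 ± 0.44 (limma adjusted p = 1.79e-07). Nusap1, a spindle microtubule protein and the mitosis gene with the largest change, 4.85 ± 0.42 (limma adjusted p = 9.41e-08), differed from these in where it ended. It was at 3.54, 3.61, 3.55, 4.20 and 4.21 in day 1 controls and at 0.20, -0.88, -1.41, 0.54 and -0.23 in irradiated mice, but at day 7 its levels of 4.34 to 5.46 (median 4.86) overlapped the controls at 3.64 to 4.58 (median 4.39).

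The other mitosis genes spread between these patterns. Cyclin B2, Ccnb2, rose by 3.99 ± 0.30, the DNA topoisomerase of mitosis, Top2a, by 3.92 ± 0.42 and the E2 enzyme of the anaphase-promoting complex, Ube2c, by 3.84 ± 0.47. The kinase Plk1 (3.35 ± 0.33) and the transcription factor Foxm1 (3.33 ± 0.34), which drives many genes of this group, had day 1 effects of -1.15 and -1.14 and day 7 effects of 2.21 and 2.20. The activator of the anaphase-promoting complex, Cdc20, rose by 2.52 ± 0.35, Ccnb1, for cyclin B1, by 1.97 ± 0.37, and the kinetochore gene Ndc80 by 1.19, the smallest called rise. With the scan date as a block 0 of these genes were called and the median change was 1.76, with Mki67 at 3.34 ± 1.02 (limma adjusted p = 0.207). Of the 42, 27 rose among mice of a high hepatocyte level. With normexp correction 11 rose and the median was 0.98, with Ccna2 at 2.65 ± 0.47 and Ccnb2 at 2.59 ± 0.42. Top2a (0.93), Plk1 (1.55), Foxm1 (0.51), Cdc20 (1.48) and Ccnb1 (0.58) were then not called.

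**Figure D3:**
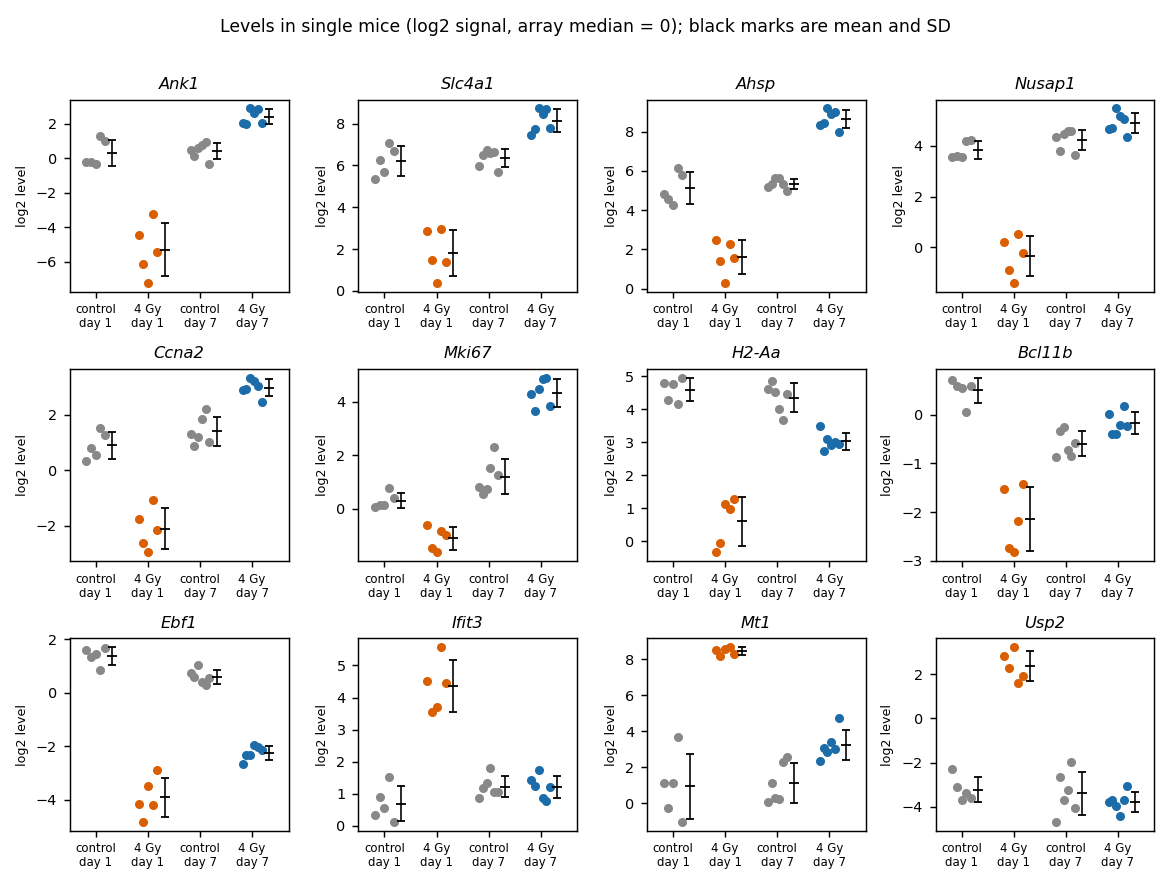
Log2 level (vertical axes, array median at 0) of 12 genes in every mouse of the day 1 and day 7 control and 4 Gy x-ray groups, with the mean and SD of each group as black marks. The irradiated mice of day 1 lie below all controls for Ank1, Slc4a1, Ahsp, the mitosis genes and the 3 lymphocyte genes, and at day 7 above all controls for Ank1, Slc4a1, Ahsp, Ccna2 and Mki67. For Ank1 only 2 of the 5 irradiated mice of day 1 were above background.

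Promoters of mitosis genes are known for the cell cycle homology region (CHR), read here as TTTGAA or TTCGAA, and for the CCAAT box bound by NF-Y. Within 250 bases before the start and on either strand, the first occurred in 17.1% of all RefSeq promoters and in 11 of the 26 risen mitosis genes with a promoter in the table (42.3%). CCAAT occurred in 33.8% and in 20 of 26 (76.9%). It was also in 6 of the 12 risen red cell membrane genes (50%) and 5 of the 9 fallen interferon genes (55.6%). Stretches of 3 promoters of risen mitosis genes, from GRCm38.p6 and in the direction of the gene, show both motifs, or their reverse complements, in capitals. In Ube2c a CCAAT box overlaps one on the opposite strand.
Ccnb2, chr9:70421556-70421736 (minus strand): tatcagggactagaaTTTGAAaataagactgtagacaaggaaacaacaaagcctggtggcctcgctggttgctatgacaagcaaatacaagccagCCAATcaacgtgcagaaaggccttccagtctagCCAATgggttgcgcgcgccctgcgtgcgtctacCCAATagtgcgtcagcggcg
Cdc20, chr4:118437344-118437411 (minus strand): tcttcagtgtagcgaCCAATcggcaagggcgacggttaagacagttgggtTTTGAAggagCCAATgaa
Ube2c, chr2:164769686-164769920 (plus strand): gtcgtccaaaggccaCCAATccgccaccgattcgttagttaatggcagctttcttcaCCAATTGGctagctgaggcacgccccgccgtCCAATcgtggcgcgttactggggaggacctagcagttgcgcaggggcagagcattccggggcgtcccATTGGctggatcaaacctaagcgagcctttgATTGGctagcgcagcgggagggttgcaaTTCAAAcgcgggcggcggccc

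DNA replication genes followed with 21 rises and 0 falls among 35 tested and a median of 1.37 (effect -0.85 at day 1, 0.40 at day 7). Dnmt1, which copies DNA methylation onto new strands, rose by 3.72 ± 0.28 (-1.83 to 1.89), its partner Uhrf1 by 3.63 ± 0.44 (-1.50 to 2.13) and Mcm5, a subunit of the replicative helicase, by 3.25 ± 0.26 (-1.97 to 1.28). The helicase subunits Mcm2, Mcm3, Mcm4, Mcm6 and Mcm7 rose by 2.99, 2.56, 1.97, 1.35 and 1.70. Of 17 tested genes for double-strand break repair, 10 rose and 0 fell (median 1.46). Fanci, of the Fanconi anemia complex, rose by 2.75 ± 0.39 (-2.24 to 0.51). Atm, the kinase that signals the breaks, rose by 1.46. Of 8 tested E2f factors and pocket proteins, 5 rose. With normexp correction 5 of 39 replication genes rose (median 0.43), with Mcm5 at 2.19 and Dnmt1 at 1.94, while Uhrf1 (1.52), Fanci (0.17) and Atm (0.079) and all 19 break repair genes were not called.

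E2f2, an E2F factor of dividing erythroid precursors and other cycling cells, showed the largest change of that family. Its levels were 5.81, 5.87, 5.51, 6.35 and 6.44 in the day 1 controls and 3.80, 2.96, 2.24, 4.26 and 3.59 in the irradiated mice. At day 7 they were 5.49 to 6.19 in controls (median 6.09) and 6.43 to 7.70 in irradiated mice (median 7.02), which gives a crossing without overlap and a change of 3.67 ± 0.42 (limma adjusted p = 1.65e-06). Rbl1, a pocket protein that represses E2F targets, rose by 2.09 ± 0.31, but its other probe changed by 0.74 ± 0.31 and it was not called with normexp correction, while E2f1 (0.63 ± 0.23, limma adjusted p = 0.0298) did not pass the test. The study itself names 22 genes for their behaviour over time, of which 20 were tested and 18 rose. Since they were chosen on these samples, that count is not independent evidence of a direction.

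Most T cell and MHC class II genes rose between the days, and fewer B cell genes did. T cell genes ended at the control level in median, with 22 of 35 tested rising and 1 falling, a median change of 1.75 and a median effect that went from -1.72 to -0.01. At day 1, 28 of the 35 were called lower than control, and at day 7 only 3. For this list and the MHC class II and B cell lists below, the background is all 10863 genes tested. Of these, 2454 were called lower at day 1 and 1230 at day 7. Bcl11b, a transcription factor that keeps T cell identity, had levels of 0.71, 0.60, 0.55, 0.05 and 0.58 in the day 1 controls and of -1.53, -2.73, -2.83, -2.18 and -1.41 in irradiated mice. At day 7 the irradiated mice (-0.40 to 0.18, median -0.22) overlapped the controls (-0.86 to -0.26, median -0.65). The change was 3.06 ± 0.33 (limma adjusted p = 8.30e-07), of which 1.10 was a lower level in the controls of day 7 than in those of day 1.

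Gata3, the T helper 2 factor, rose by 2.72 ± 0.36 and ended above control, with effects of -1.11 and 1.61. The CD8 coreceptor genes Cd8b1 and Cd8a rose by 2.42 ± 0.35 and 2.00 ± 0.40, and Cd8a was still below control at day 7, with an effect of -1.29. Cd3e, for a chain of the T cell receptor complex, rose by 1.77 ± 0.32, Foxp3, the factor of regulatory T cells, by 1.92 ± 0.23, and Ccr7, the homing receptor of naive T cells, by 1.93 ± 0.41 (-3.47 to -1.54). The 1 fall was Cd4, by 4.58 ± 0.81, whose level followed the set of falls described below, with a correlation within groups of 0.87. Among mice of a high hepatocyte level 7 T cell genes rose, and under the scan date block 0 did, with median changes of 1.54 and 1.16. With normexp correction 4 of 30 rose (median 1.30), with Bcl11b at 1.60 ± 0.37, and Cd8a (0.69), Cd8b1 (1.75), Cd3e (1.62), Foxp3 (0.35) and Ccr7 (1.78) were not called.

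MHC class II and B cell genes were still far below control at day 7. Of 12 tested MHC class II genes 9 rose and 0 fell, with a median of 2.04, but the median effect was -3.64 at day 1 and still -1.48 at day 7, when 11 of the 12 were called lower than control. H2-Aa, for an antigen-presenting alpha chain, was at 4.8, 4.27, 4.78, 4.17 and 4.95 in the day 1 controls and at -0.34, -0.05, 1.13, 0.97 and 1.29 in the irradiated mice. Its levels at day 7 were 3.67 to 4.85 in controls (median 4.48) and 2.74 to 3.48 in irradiated mice (median 2.97). Irradiated mice were below all controls on both days, and the change was 2.67 ± 0.39 (limma adjusted p = 2.74e-05). Cd74, the invariant chain, rose by 2.41 ± 0.34 and Ciita, the transactivator of the class, by 2.14 ± 0.34, while a second Ciita probe changed by -0.49 ± 0.36. With normexp correction 2 of 12 rose (median 1.20), and Ciita, at 0.41 ± 0.50, was not called.

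Of 31 tested B cell genes, 10 rose and 1 fell, with a median change of 1.20, and the median effect went from -3.82 to -2.58, with 29 called lower at day 1 and 27 at day 7. Ebf1, a factor that specifies the B lineage, was at 1.60, 1.34, 1.44, 0.84 and 1.67 in the day 1 controls and at -4.16, -4.82, -3.49, -4.19 and -2.89 in irradiated mice, 4 of them above background. Its day 7 levels were 0.30 to 1.04 in controls (median 0.56) and -2.67 to -1.97 in irradiated mice (median -2.23), below all controls as at day 1, with a change of 2.44 ± 0.36 (limma adjusted p = 3.16e-05). Fcer2a, the IgE receptor CD23 of mature B cells, rose by 1.93 ± 0.36 (-6.56 to -4.62). The receptor subunit Cd79a (0.90 ± 0.46) and Ms4a1, for CD20 (1.40 ± 0.45), did not pass the test, but a dimmer probe of Cd79a changed by 2.51 ± 0.37. With normexp correction 0 of 32 B cell genes were called (median 0.58), with Ebf1 at 0.49 ± 0.57 and Fcer2a at 0.23 ± 0.66. Among mice of a high hepatocyte level 6 MHC class II and 5 B cell genes rose, and under the scan date block 0 of either, with medians of 2.57 and 1.66.

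Other blood cell groups differed in their share of calls, beside 12.4% rises and 9.94% falls over all genes tested. Rises made up 29% of the monocyte genes and 6.45% of the NK and cytotoxic genes, and falls 19.4% of the platelet genes. Of 31 monocyte genes 9 rose, with a median of 0.05, among them Ace, an enzyme of patrolling monocytes (2.42 ± 0.29), the chemokine receptor Ccr2 of classical monocytes (2.04 ± 0.37) and the scavenger receptor Cd36 (2.56 ± 0.42). Of 31 NK and cytotoxic genes 2 rose, Gzmm and Ctsw, with a median of 0.04. Ctsw kept its call in 21 of 43 alternative settings. Among 31 receptors and alarmins of mature neutrophils 0 genes were called, with a median of -0.30, and of 18 neutrophil granule proteins 1 rose and 1 fell, with a median of 0.48. Platelet genes fell in 7 of 36 cases and rose in 0, with a median of -1.10 (effect 1.03 at day 1 and 0.04 at day 7). Cavin2, a membrane protein abundant in platelets, was at 5.15, 5.37, 5.06, 5.43 and 5.06 in the day 1 controls and at 6.89, 5.72, 5.18, 6.60 and 6.79 in irradiated mice. Its day 7 levels were 3.68 to 5.61 in controls (median 5.01) and 2.71 to 4.00 in irradiated mice (median 3.32). The groups overlapped on both days, and the change was -2.37 ± 0.48 (limma adjusted p = 0.000651). The chemokine Pf4, made almost only by megakaryocytes, changed by -0.40 ± 0.36 and was not called. With normexp correction 1 monocyte gene rose and 1 platelet gene fell, and Cavin2 (-2.05) was not called.

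Of 36 tested genes induced by interferon, 23 were called higher than control at day 1, beside 2169 of all 10863 genes. Between the days 14 fell and 2 rose, with a median of -1.30, and the median effect went from 1.29 to 0.09. Ifit3, an antiviral protein that binds foreign RNA complexes, was at 0.34, 0.91, 0.57, 1.51 and 0.13 in the day 1 controls and at 4.52, 3.53, 3.7, 5.57 and 4.45 in irradiated mice. At day 7 the irradiated mice (0.78 to 1.73, median 1.22) overlapped the controls (0.86 to 1.80, median 1.13). All irradiated mice of day 1 were above all controls, and the change was -3.67 ± 0.43 (limma adjusted p = 2.36e-06). Oasl1, a sensor-like synthetase relative, fell by 3.14 ± 0.48, Usp18, which removes ISG15 from proteins, by 2.80 ± 0.31, and Ifit1 by 2.34 ± 0.52.

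The 2 interferon genes that rose did the opposite. Rsad2, for the antiviral enzyme viperin, had an effect of -2.44 at day 1 and 0.45 at day 7 (change 2.89 ± 0.48), and Isg15, the ubiquitin-like modifier, -1.14 and 0.78 (change 1.92 ± 0.47). Both were abundant, with mean log2 levels of 6.73 and 6.54 over all arrays. The interferon response element, searched as TTTC, any 2 bases and TTTC on both strands of the 250 bases before the start, occurred in 2.98% of all RefSeq promoters, in 5 of the 9 fallen genes with a promoter in the table (55.6%) and in both that rose. A pair of fallen and the pair of risen genes are shown from GRCm38.p6 in the direction of the gene with the motif, or its reverse complement, in capitals, so the element was present on both sides. The matches in Isg15 overlap.
Ifit3, chr19:34583358-34583431 (plus strand): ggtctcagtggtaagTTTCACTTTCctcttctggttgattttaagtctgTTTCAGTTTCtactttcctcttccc
Ifit1, chr19:34640770-34640828 (plus strand): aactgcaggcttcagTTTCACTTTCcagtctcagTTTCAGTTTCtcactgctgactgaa
Rsad2, chr12:26456548-26456587 (minus strand): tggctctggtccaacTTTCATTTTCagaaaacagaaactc
Isg15, chr4:156200860-156200911 (minus strand): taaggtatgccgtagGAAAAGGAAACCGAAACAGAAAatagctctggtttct
With the scan date as a block 0 interferon genes were called and the median was -1.31, with Ifit3 at -3.89 ± 0.94 (limma adjusted p = 0.0746). There were 10 falls and 1 rise among mice of a high hepatocyte level, and 2 falls and 1 rise of 43 with normexp correction, where Oasl1, Ifit1 and Isg15 were not called.

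Of 15 tested targets of p53 that arrest the cell cycle, 4 fell and 0 rose, with a median of -1.08. The median effect was 2.35 at day 1 and 1.08 at day 7. Of the 15, 12 were called higher at day 1 and 8 at day 7, beside 2169 and 943 of all 10863 genes. Plk2, a kinase of the stress response, was at -3.58, -2.44, -3.18, -2.98 and -4.17 in the day 1 controls and at -1.04, -0.43, -0.48, -0.42 and -1.04 in irradiated mice. At day 7 it was at -3.97 to -2.54 in controls (median -3.02) and at -2.60 to -1.61 in irradiated mice (median -2.45), so a separation at day 1 became a slight overlap, with a change of -1.73 ± 0.42 (limma adjusted p = 0.00247). Cdkn1a, the cyclin-dependent kinase inhibitor p21, stayed high, with effects of 4.15 and 3.07 and a change of -1.08 ± 0.37 that did not pass the test (limma adjusted p = 0.0222). Ccng1, for cyclin G1, gave -0.35 ± 0.23. Of 5 tested p53 targets of apoptosis 1 fell, Aen, a nuclease induced by p53 (-1.21 ± 0.21). Among mice of a high hepatocyte level 1 of the 15 fell, and under the scan date block and with normexp correction 0, where Plk2 changed by -0.75 with the latter.

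Acute-phase genes and metallothioneins had the largest day 1 effects of the falls outside the co-varying set described below. Of 11 tested acute-phase genes 3 fell, with a median of -2.61. Saa1, for serum amyloid A, was at 0.07, 1.09, 0.74, 6.11 and 0.07 in the day 1 controls and at 9.38, 9.82, 9.59, 9.45 and 8.52 in irradiated mice. At day 7 it was at 1.01 to 2.13 in controls (median 1.48) and at 2.07 to 4.51 in irradiated mice (median 3.98), and the change was -5.50 ± 1.06 (limma adjusted p = 0.000381). The day 1 groups did not overlap although replicate 4 of the controls lay far above the others, and the day 7 groups overlapped slightly.

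The metal-binding protein gene Mt1 was at 1.13, -0.29, 1.13, 3.71 and -1.04 in the day 1 controls and at 8.55, 8.19, 8.61, 8.68 and 8.29 in irradiated mice. At day 7 the values were 0.07 to 2.58 in controls (median 0.69) and 2.34 to 4.76 in irradiated mice (median 3.04), a change of -5.39 ± 0.89 (limma adjusted p = 9.05e-05). Mt2 fell by 4.66 ± 0.91. Liver makes these 3 proteins in the acute phase, and the 54 hepatocyte genes were at 5.81 or more in every irradiated mouse of day 1. In the order of the Mt1 levels, the day 1 controls were at 2.77, -2.13, 3.75, 5.05 and -1.41 for the hepatocyte genes. Replicate 6 of the irradiated mice of day 7 was at 5.63, and the highest Mt1 level of its group was 4.76. The part of liver in these falls was not tested beyond the values given here. Of the 17 hepatocyte genes tested 0 were called, with a median change of -0.25 and a median difference of -4.89 between the controls of the 2 days. Among mice of a high hepatocyte level 1 acute-phase gene fell and 1 rose. In that fit Mt1 changed by -3.82 ± 0.89, while Saa1 (-4.46) and Mt2 (-2.78) were not called. With only low hepatocyte mice kept among the irradiated of day 7, Saa1 (-5.84), Mt1 (-5.90) and Mt2 (-5.52) were all called. With the mean of the co-varying falls described below as a covariate, Saa1 (-5.23), Mt1 (-4.81) and Mt2 (-4.18) were not called.

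Metabolic groups had a median effect above control at day 1 and a smaller one at day 7. Falls made up 23.1% of fatty acid oxidation, 16% of sterol and 19.7% of oxidative phosphorylation genes, beside 9.94% over all genes tested. Of 26 genes of fatty acid oxidation 6 fell and 0 rose (median -1.48, effect 2.16 to 0.70), among them Ppara, the nuclear receptor that controls the pathway (-3.33 ± 0.64). Ppara also followed the set of falls described below, with a correlation within groups of 0.83, and changed by -0.25 with the mean of that set as a covariate, which was no longer called. Of 25 sterol genes 4 fell and 0 rose (median -1.07), with Srebf1, a lipogenic transcription factor, at -2.22 ± 0.52. Of 61 subunits of oxidative phosphorylation 12 fell and 1 rose, with a median of -0.47 (effect 1.23 to 0.57). Among mice of a high hepatocyte level 1 fatty acid gene, 0 sterol genes and 2 oxidative phosphorylation genes fell, and under the scan date block 0 of any. With normexp correction 1, 0 and 0 fell. Cytosolic ribosomal proteins showed 3 rises and 1 fall among 63 with a median of -0.04, which became 0.20 with the 75th percentile and 0.62 with quantile normalization.

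The 10 genes with the largest falls varied together across arrays. They included Npb, Vangl2, Lpo, Sall4, Raet1b, Lypd2, Bmp1, Lrsam1 and Msi1, and their changes ran from -10.3 to -6.70. Npb, a neuropeptide precursor, was at -1.70, -1.29, -1.68, -0.83 and -1.15 in the day 1 controls, and at -0.29, 3.94, 5.66 and 5.55 in the 4 irradiated mice with a value. On day 7 it was at -1.07 to 7.19 in controls (median 6.40) and at -1.01 to -0.52 in irradiated mice (median -0.78). So the change of -10.3 ± 1.81 (limma adjusted p = 0.000184) held a difference of 5.82 between the controls of the 2 days. These values are of the brightest probe of each gene, and some other probes gave far smaller falls. A pair of other Npb probes changed by -3.49 ± 0.78 and -1.64 ± 0.36, and further probes of Vangl2 by -1.04 ± 0.52, of Bmp1 by -2.74 ± 1.22 and -1.05 ± 0.38 and of Lrsam1 by -4.72 ± 1.17 and -0.86 ± 0.21. The mean of the 10 genes ran from 0.19 to 6.83 in the day 7 controls and from 1.07 to 5.47 in the irradiated mice of day 1, beside -0.62 to 0.37 in the day 1 controls and -0.15 to 0.82 in the irradiated mice of day 7. Its level moved with the scan date as well as with the group, and their parts were not tested. On the 10 arrays of the third scan date it ran from 0.19 to 6.83 and was above 3 on 8, and on the other 12 arrays it ran from -0.62 to 1.07. Over all 10 groups the third date had 11 of 16 arrays above 3, the fifth 5 of 7, the first 3 of 15, the second 3 of 7 and the fourth 0 of 11.

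A total of 573 tested genes followed this mean with a correlation within groups over 0.7 across the 22 arrays, and 172 of them were falls (15.9% of all falls) and 1 was a rise. Npb changed by 0.02 with the mean as a covariate, and the calls dropped to 626 (331 rises and 295 falls). In that fit 24 mitosis and 14 red cell membrane genes still rose, against 3 T cell genes and 2 heme genes. The covariate was built from the falls themselves and chosen after the values were seen. What the 10 genes reflect was not tested.

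**Figure D4:**
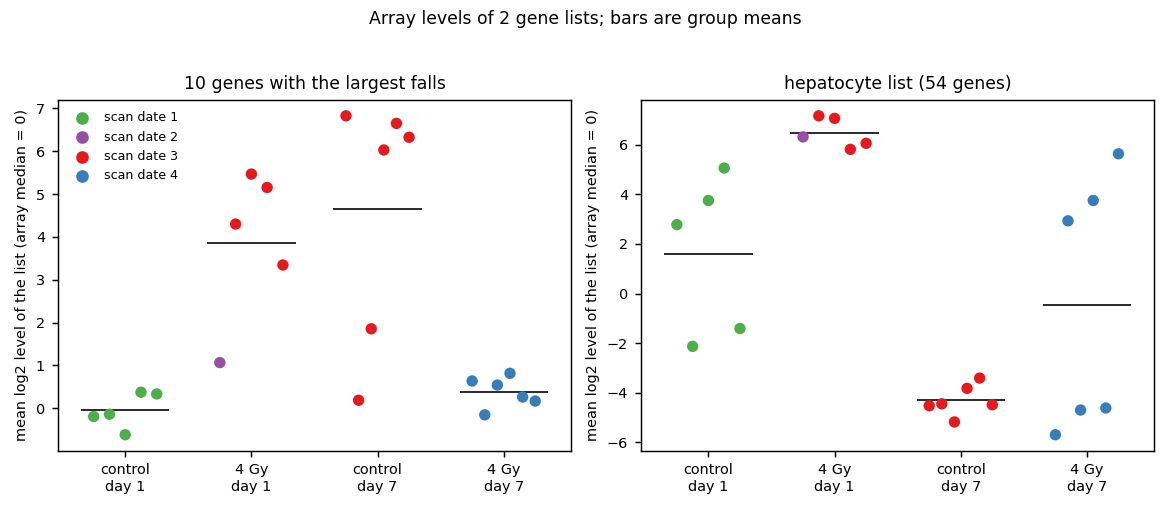
Mean log2 level per array (vertical axes) of the 10 genes with the largest falls (left, coloured by scan date) and of 54 hepatocyte genes (right) in the day 1 and day 7 control and 4 Gy x-ray groups. The first is above 3 on 8 arrays, all of the third scan date, and the second separates replicates 2, 4 and 6 of the irradiated mice of day 7, at 2.93 to 5.63, from the other 3, at -5.69 to -4.61.

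The change after 4 Gy was then set against the changes after 1 Gy of x-rays (6 mice at day 1 and 5 at day 7) and 1 Gy of accelerator neutrons (6 mice on each day). The controls drop out of these differences. The groups compared also differ in scan date. The 1 Gy x-ray arrays were scanned on dates 2 and 5 at day 1 and on dates 4 and 5 at day 7. The neutron arrays were scanned on dates 1 and 2 at day 1 and on dates 3, 4 and 5 at day 7. The scan date was not fitted as a fixed block in these comparisons. Against 1 Gy of x-rays 955 genes (8.79%) differed, 660 with a higher and 295 with a lower change after 4 Gy. Against neutrons 2560 genes (23.6%) differed, 578 higher and 1982 lower. These splits depended on the centring. With spike-in controls as reference 99.8% of 2206 and of 10777 calls were higher, and the median difference of all genes was 1.01 and 2.53, so the differences below are relative to the other transcripts of each array. With normexp correction 4 and 333 genes were called.

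Cell cycle and T cell genes set 4 Gy apart from 1 Gy of x-rays. Of 42 mitosis genes 27 changed more after 4 Gy and 0 less, with median changes of 2.21 after 4 Gy and 0.26 after 1 Gy. For DNA replication 17 of 35 were higher (1.37 and 0.06), for double-strand break repair 7 of 17 (1.46 and -0.02), for T cell genes 24 of 35 (1.75 and -0.14) and for MHC class II genes 8 of 12 (2.04 and 0.15). Against the spike-in controls the median difference was 2.82 for mitosis and 2.85 for T cell genes, beside 1.82 and 1.88 in the main fit. With that reference the median difference of all genes went up too, from -0.23 to the value given above. Mki67 changed by 4.55 after 4 Gy and by 1.44 after 1 Gy, a difference of 3.11 ± 0.40 (limma adjusted p = 0.000107). Bcl11b changed by 3.06 and 0.79 (difference 2.27 ± 0.40, limma adjusted p = 0.000819).

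Red cell genes had positive median changes after both doses, and a difference between the doses passed the test for few of them. The median change of the membrane list was 3.22 after 4 Gy and 2.51 after 1 Gy of x-rays, with 0 of 26 genes called. Ank1 changed by 7.56 and 4.89, a difference of 2.67 ± 0.72 (limma adjusted p = 0.0126), and Ahsp, outside that list, passed the test, with 6.82 and 3.93 (difference 2.89 ± 0.53, limma adjusted p = 0.00111). Heme genes had medians of 1.70 and 1.67, again with 0 called. With the spike-in controls as reference 11 of 28 membrane genes were higher after 4 Gy.

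Against neutrons the order of the groups differed. Mitosis genes had 17 higher and 2 lower of 42 (median change 1.27 after neutrons) and T cell genes 12 higher and 1 lower of 35 (0.32). Red cell membrane genes had a median change of 3.86 after neutrons with 2 of 26 lower after 4 Gy, and reticulocyte clearance genes 3.19 with 10 of 31 lower, a difference whose median of -1.18 became 1.32 with the spike-in reference. Of 63 ribosomal protein genes 46 were lower after 4 Gy (median change -0.04 against 1.62), but their median difference of -1.55 turned to 1.31 with the spike-in reference and to 0.49 with quantile normalization. With the spike-in reference the ribosomal and clearance lists both stayed below the median difference of all genes given above. Rplp2, a stalk protein of the large ribosomal subunit, changed by -0.17 and 2.52, a difference of -2.69 ± 0.33 (limma adjusted p = 2.93e-06). H2-Aa did not pass the test at 1.60 ± 0.50.

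**Figure D5:**
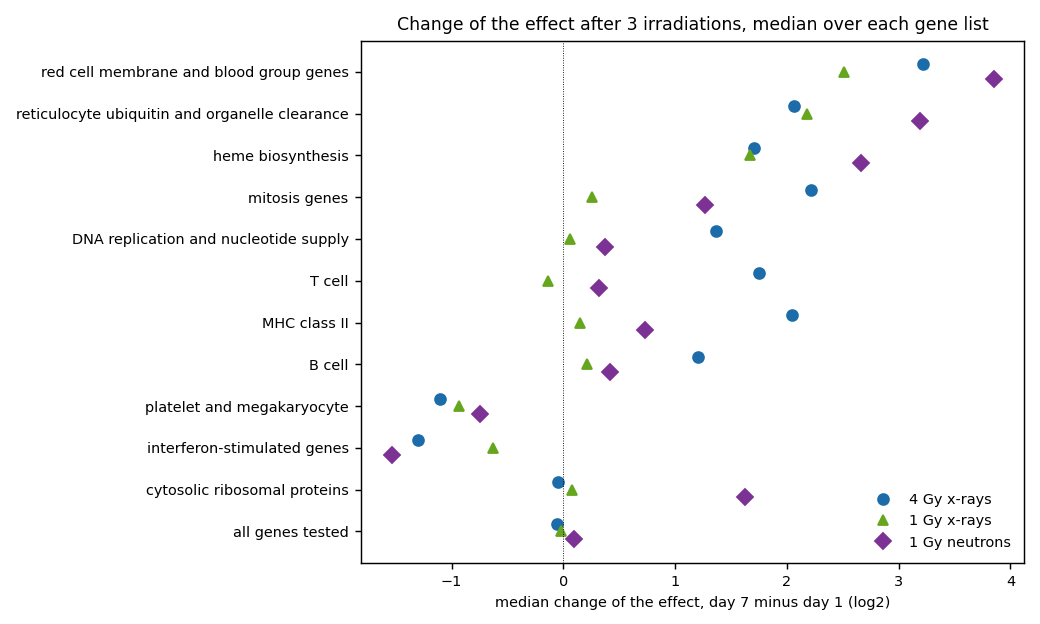
Median change between day 1 and day 7 (log2, horizontal axis) of each gene list after 4 Gy of x-rays, 1 Gy of x-rays and 1 Gy of neutrons, each relative to the array median. Mitosis, DNA replication and lymphocyte lists lie furthest right after 4 Gy, for mitosis at 2.21 against 0.26 and 1.27, while red cell membrane genes lie at 3.22, 2.51 and 3.86.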

How the data were processed

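Whole blood of 1 mouse per array was measured on one-colour Agilent mouse arrays. The deposited files hold the scanner's intensity per spot, and the authors had processed them with Agilent Feature Extraction (12.0.2 in the submitters' processing notes), whose background-subtracted signal was used. The authors' normalized table and the day 3 arrays were not used here. Each array held 44397 spots, and 1377 control spots were left out. In R 4.3.3, log2 signals were centred on each array's median over detected probes. Probes dim on 25% or more of the 56 arrays of days 1 and 7, or 1.5-fold from their median on fewer than 20% of them, were left out. The brightest remaining probe stood for a gene, with names updated through RefSeq. limma 3.58.1 fitted the 4 groups without covariates, and a call needed p below 0.001 and a false discovery rate below 5%. P-values measure the spread between mice, and the number of arrays limits the precision. On simulated data of the main comparison, log2 changes of 1, 2, 3 and 4 were recovered for 20%, 58%, 94% and 100% of 50 genes each.

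The members and gene lists were chosen with earlier results of these data known. The rule named the 10 largest called rises and falls with irradiated levels apart between the days, the 5 largest of each among genes called with opposite signs on the 2 days, up to 4 called members of each list with its most abundant tested member, genes the study names, and the 3 largest differences in each direction between doses and between radiation types. Some genes that the rule names are not reported here. Named genes outside the rule were chosen after their values were seen. Alternatives changed the centring, background correction, filters, probe choice, moderation, threshold, scan date, slide or replicate block and hepatocyte covariate, and left out each mouse in turn. A further 4, on the scan date as a fixed block, the hepatocyte level and the largest falls, were chosen after seeing the data.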

Additional observations from a re-analysis of the deposited data

Results flagged for a closer look

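Over 84 pairs of a measure and a group of mice, 3 pairs held a mouse far from the rest of its group. Chance gives about 1 in 20 pairs, so this is no excess. In replicate 4 of the day 1 controls Bcl11b was at 0.052, below the others at 0.55 to 0.71, and Saa1 was at 6.11, above the others at 0.07 to 1.09. In replicate 6 of the day 7 controls E2f2 was at 5.49, below the others at 5.96 to 6.19.

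Several genes changed between the days by a different amount after another dose or radiation type, by the test of the difference. The change after 4 Gy was higher than after 1 Gy of x-rays by 3.81 for Ska1, a spindle protein, by 3.69 for Apol10a, an apolipoprotein L, and by 3.55 for Olr1, a receptor for oxidised lipoprotein. Ska1 was below background on all irradiated arrays of day 1, so its value rests on a dim signal. It was lower by 3.31 for Lce1a2 (-3.31), by 4.23 for Mt1 (-4.23) and by 5.20 for Mt2 (-5.20). Against 1 Gy of neutrons the change was higher by 3.85 for Olr1 and 3.03 for Cdon, and the difference was -5.34 for Lce1a2, -5.36 for Msi1 and -6.63 for Vangl2. Msi1 and Vangl2 belong to the 10 largest falls that varied together across arrays. Lce1a2 is not among them but followed their mean, with a correlation within groups of 0.93. Its change between the days after 4 Gy was -4.56, and 0.42 and not called with that mean as a covariate.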

How the results depend on the processing

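Of the 100 named genes called for the change, 95 to 100 kept their call and direction under centring on the 75th percentile, the mean of the probes, trend and robust moderation, scan date as a random block, slide as a random block and the replicate block, and 93 to 99 when single mice were left out. Spike-in centring kept 86, quantile normalization 92 of 99, the fit of low hepatocyte mice at day 7 91, that of high hepatocyte mice 75 and the 10 largest falls as a covariate 50, with 7 turned. With normexp background correction and its offset of 50, 335 genes changed (162 rose, 173 fell), and 42 of 97 named genes lost their call. Of the 2429 changes, 24 had a group below background on all its arrays, so their size is only a bound. With the scan date as a fixed block, chosen after seeing the data, 17 changed (8 rose, 9 fell), and no named gene was called. The cause of each shift was not tested.

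The main count of 2429 became 1602 with spike-in centring, 4953 by false discovery rate alone, 955 (586 rises and 369 falls) with mice of a high hepatocyte level and 626 (331 and 295) with the mean of the 10 largest falls as a covariate. Falls numbered 662 with the 75th percentile, 677 with spike-ins, 1904 without the detection filter (beside 1438 rises) and 2499 by false discovery rate alone, and rises 2198 with the 75th percentile and 2454 by false discovery rate alone. Centring on the median of all probes gave 1611 rises and 886 falls. Genes lower and then higher (150) numbered 13 with normexp, 382 by false discovery rate alone, 2 with the scan date, 46 with high hepatocyte mice and 59 with the falls as covariate. Those higher and then lower (45) numbered 20 with the 75th percentile, 4 with normexp, 351 by false discovery rate alone, 15 with the hepatocyte covariate, 1 with the scan date, 8 with low and 9 with high hepatocyte mice of day 7.

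Effects called at day 1 (4623) numbered 1206 with normexp, 7065 by false discovery rate alone, 593 with the scan date and 2985 with high hepatocyte mice, and at day 7 (2173) 499, 4271, 271 and 1399, with 1060 for low hepatocyte mice and 1115 with the falls as covariate. Between irradiated mice of the 2 days (4751) the counts were 1389 with normexp, 2709 with the hepatocyte covariate, 1294 with the scan date and 2949 with high hepatocyte mice. Between controls (1239) they were 266 with normexp, 2084 without the detection filter, 2638 by false discovery rate alone, 616 with the hepatocyte covariate, 4 with the scan date, 714 with high hepatocyte mice and 0 with the falls as covariate. Lists with 50% or more of their tested members called in 1 direction (10) numbered 6 with spike-ins, 0 with normexp, 16 by false discovery rate alone, 0 with the scan date, 4 with high hepatocyte mice and 2 with the falls as covariate. Genes that differed from 1 Gy of x-rays (955) numbered 2206 with spike-ins and 4 with normexp, and from neutrons (2560) 10777 and 333.

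Leaving out single mice gave 2009 to 2692 changed genes, 1124 to 1428 rises, 885 to 1264 falls, 125 to 180 lower then higher, 24 to 95 higher then lower, 3967 to 4738 effects at day 1, 1703 to 2262 at day 7, 4275 to 4849 between irradiated mice, 687 (without replicate 1 of the day 1 controls) to 1571 between controls, 9 to 11 lists, 718 to 1062 against 1 Gy of x-rays and 2258 to 2796 against neutrons.

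Replicate numbers are shared across groups but did not pair the mice, since the correlations of same-numbered deviations over 31 pairs ran from -0.66 to 0.61 (median 0.01) and 11 were above 0.1. With the replicate block 2201 genes changed (1238 rose, 963 fell), 168 were lower then higher, 33 higher then lower, 4420 and 2045 were called at days 1 and 7, 4669 between irradiated mice and 1114 between controls, 9 lists passed, and 657 and 2191 genes differed from 1 Gy of x-rays and neutrons.

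Some named genes turned in direction. With the scan date as a block Npb changed by 2.36, Lypd2 by 1.36, Cry2 by 1.06, Lpo by 0.59 and Alas2 by -0.90. With the falls as covariate Lypd2 changed by 1.5, Ulk1 by 0.90, Lpo by 0.73, Bmp1 by 0.50, Lce1a2 by 0.42, Lrsam1 by 0.10, Rplp2 by 0.030 and Npb by 0.022. With normexp Rbl1 changed by -0.26, Xk by -0.017 and Rplp2 by 0.081, with the 75th percentile Rplp2 by 0.091 and with quantile normalization Pf4 by 0.19. Alas2 changed by -0.023 with high hepatocyte mice, and without single mice by -0.031 (replicate 3 of the irradiated mice of day 1) to 0.28.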

Other observations

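Clock genes, a list added after the values were seen, included 1 rise and 6 falls among 12 tested, with a median change of -1.07. Usp2, a deubiquitinating enzyme whose transcript cycles with the clock, was at -2.30, -3.11, -3.68, -3.36 and -3.60 in the day 1 controls and at 2.83, 2.27, 3.22, 1.58 and 1.92 in the irradiated mice. At day 7 it was at -4.67 to -1.98 in controls (median -3.47) and at -4.42 to -3.06 in irradiated mice (median -3.75). The groups lay apart at day 1 and overlapped at day 7, with a change of -5.96 ± 0.56 (limma adjusted p = 1.76e-07). The clock repressor Cry2 fell by 5.03 and the output factors Dbp, Tef and Hlf by 3.83, 2.82 and 2.77, while Arntl, which encodes the activator BMAL1, rose by 1.41. With the scan date as a block Usp2 changed by -5.70 ± 1.94 and was not called, and Cry2 by 1.06. With the mean of the 10 largest falls as a covariate Cry2 changed by -0.17 and Hlf by -2.02, neither called, and Usp2 by -6.69 ± 0.91. With normexp background correction Usp2 changed by -3.57 ± 0.63. Among mice of a high hepatocyte level Hlf (-1.51) and Cry2 (-4.78) were not called. Usp2 (-5.82), Dbp (-3.77), Tef (-2.80) and Arntl (1.41) were called in that fit. The part of liver in these changes was not tested. The hour of the blood draw was not given in the sources used here.

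Globin genes, whose transcripts had been reduced in the RNA, gave 2 rises among 8 tested and a median of 0.02. The rises were the embryonic Hbb-y (2.01) and Hbq1b (1.98). Of 6 apolipoprotein L genes 3 rose, with a median of 2.61. Apol10a was at -2.08, -1.74, -1.76, 0.19 and -0.38 in the day 1 controls and at -4.05, -6.39, -7.03, -2.93 and -6.75 in irradiated mice, 2 of them above background. At day 7 it was at -0.91 to 0.14 in controls (median -0.17) and at 3.02 to 4.46 in irradiated mice (median 3.97), a crossing without overlap and a change of 8.37 ± 0.84 (limma adjusted p = 3.27e-07). With normexp background correction it was 3.95 ± 0.54, below that of Ahsp at 6.42 ± 0.62. Apol11b and Apol10b rose by 6.46 and 4.51. Both lists were added after the values were seen.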
